A study of Mus musculus with 2 samples.

Results

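The liver is the main organ that removes the nitrogen of amino acids. The 45 genes described here code for its urea cycle and for the enzymes that break down glutamate, glutamine, alanine, histidine, tyrosine, tryptophan, serine, proline, ornithine, glycine and the branched-chain amino acids. They were chosen by gene symbol from the 21878 symbols of the count tables, and all 45 were listed and had enough reads to be compared. The samples were livers of FVB/N mice into which c-Myc had been delivered hydrodynamically, that is, by a fast injection of a large volume into the tail vein, which carries DNA into hepatocytes. One group had no further treatment (untreated) and the other was treated with TSA. Each group was 1 polyA RNA library, so both libraries share the strain and the c-Myc injection and differ by label in the treatment. The labels do not state the dose or duration, the animals' age, the share of tumour in the sample or how many animals it came from.

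Transamination moves the amino group of most amino acids onto glutamate, and glutamate dehydrogenase and glutaminase release it as ammonia. The urea cycle fixes that ammonia, with CPS1 and OTC in the mitochondrion and ASS1, ASL and arginase in the cytosol, while the carbon skeletons enter gluconeogenesis, ketone formation or the citric acid cycle. The full set of these enzymes is a property of mature hepatocytes, for many of them strongest around the portal vein, and it is induced by glucagon, glucocorticoids and fasting.

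With 1 library per group the differences below have no replicate check, and no p-value can be given. Ratios are TSA over untreated after TMM scaling, a correction of library size that assumes most genes do not differ. The range in parentheses is a 95% interval for the error of counting reads and nothing else. Genes were called when they differed by 2-fold or more and that range left out a ratio of 1. Levels are given as FPKM, reads scaled to gene model length and to library total. FPKM uses the total count of each library, and TMM lies 0.85 above it on the log2 scale for every gene, so the ratio of 2 FPKM values is smaller than the TMM ratio. The libraries held 17281523 (untreated) and 17088227 (TSA) counts, and no member had fewer than 61 counts in either.

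Of the 45 genes 38 were called higher with TSA, 1 was called lower and 6 were neither. Among all 13027 genes tested 26.0% were higher and 27.4% lower by the same rule. Those shares leave the TMM assumption that most genes do not differ in doubt, so calls with total counts are given as well. With total counts in place of TMM 29 members were higher and 4 lower, against 16.0% and 48.7% of all genes. With TMM 19 members were at least 10-fold higher, against 7.81% of all genes, and 2 were at least 100-fold higher, against 1.94%. Fewer members reached 10-fold with total counts, where for example *Arg1* was 9.01-fold higher. The median log2 ratio of the members stood 2.67 above that of all tested genes, a difference that a common scaling factor does not move. The members took 0.768% of the counts without treatment (exact 95% interval 0.764 to 0.772) and 2.76% with TSA (2.76 to 2.77). Their summed level was 3274 FPKM and 11571 FPKM, respectively.

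**Figure D1:**
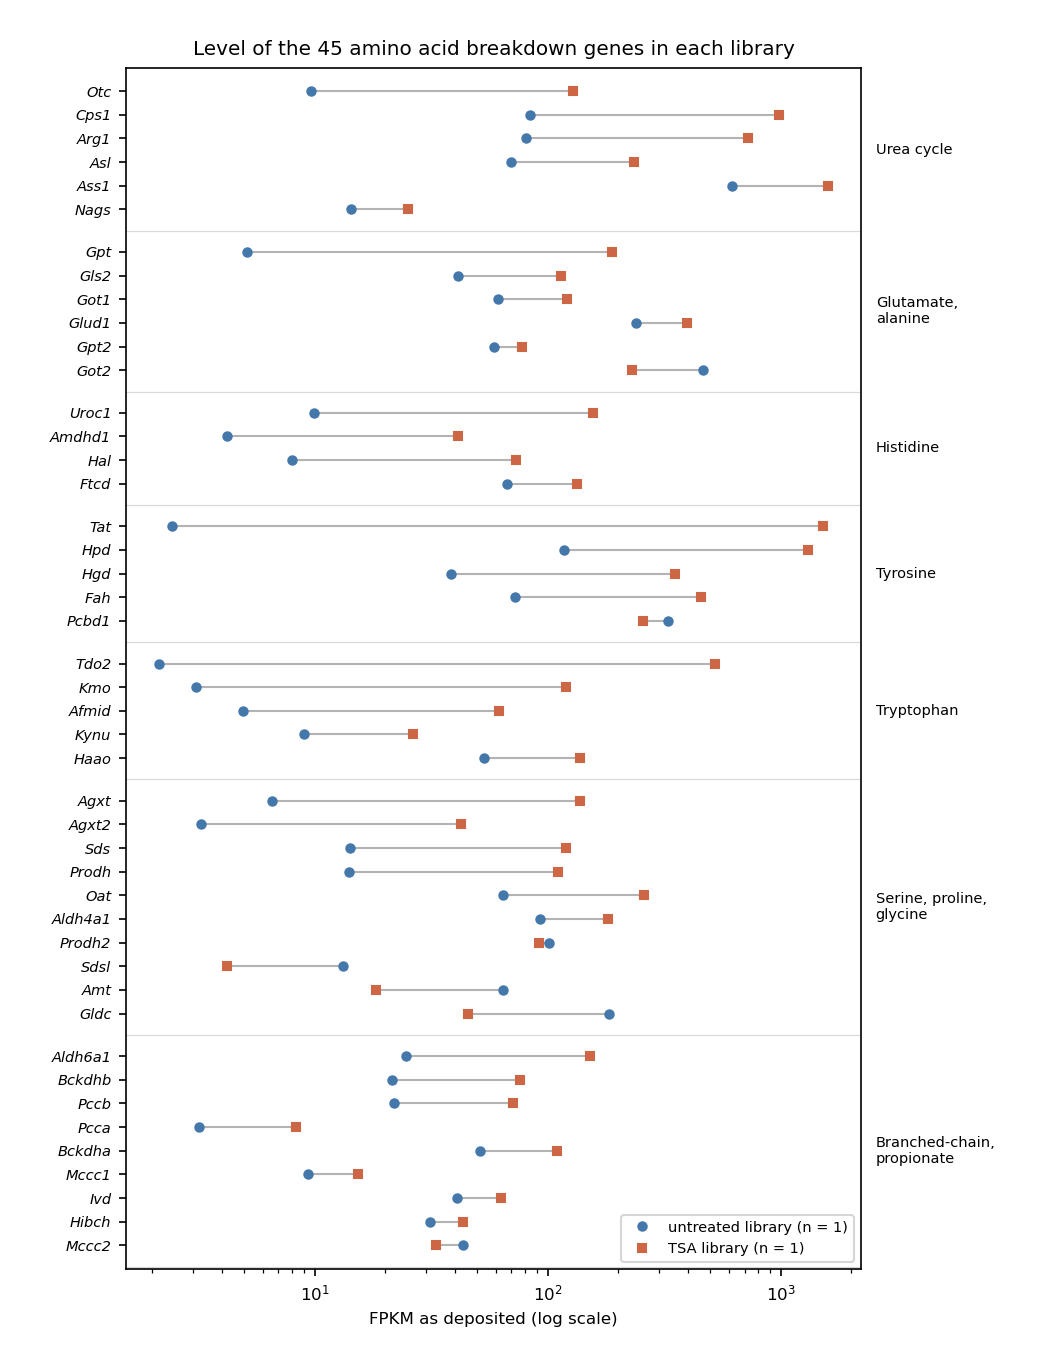
FPKM (horizontal log axis) of each of the 45 genes in the untreated library (circles) and the TSA library (squares), 1 library each, grouped by pathway. In 38 genes the square lies to the right, and *Got2*, *Pcbd1*, *Sdsl*, *Prodh2*, *Gldc*, *Amt* and *Mccc2* are the 7 genes where it lies to the left.

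The tissue label was checked against cell markers, and in bulk tissue fewer cells of a type and less RNA per cell cannot be told apart. All 11 hepatocyte markers were present in both libraries and higher with TSA, from 2.46-fold to 198-fold with a median of 8.18-fold. Of the 45 members 19 had a ratio above that median and 8 a ratio below the lowest of these markers. All 10 cell division markers were lower, with summed levels of 1895 and 25.8 CPM after scaling, and 3 of 4 fetal liver markers were lower, *Dlk1* being at 0 with TSA. Summed endothelial markers were at 93.0 and 627 CPM (8 of 9 higher, and 6 with total counts). Macrophage markers were at 339 and 585 CPM (5 of 8 higher and 1 lower, and 3 and 2 with total counts). Stellate and fibroblast markers were at 436 and 603 CPM (4 of 9 higher and 2 lower, and 3 and 4 with total counts). Cholangiocyte markers were at 79.3 and 79.0 CPM (4 of 7 higher and 2 lower, and 3 and 3 with total counts). *Cftr* of that list had 4 counts without treatment and 0 with TSA. For these lists the order of the sums can depend on scaling: summed FPKM was 233 and 190.1 for macrophage markers and 49.8 and 29.3 for cholangiocyte markers, and 113 and 122 for stellate and fibroblast markers. B cell markers were at 59.0 and 239 CPM (5 of 5 higher). Neutrophil markers were at 3.14 and 11.8 CPM (3 of 3 higher, and 2 with total counts, *Ly6g* at 0 in both). Erythroid markers were at 69.4 and 351 CPM (4 of 4 higher, *Hba-a2* at 0 with TSA). T and NK cell markers were at 8.31 and 7.94 CPM (1 of 3 higher, and none higher and 1 lower with total counts). Pancreas acinar markers were at 2.28 and 65.2 CPM (4 of 4 higher, *Prss1* at 0 in both, *Amy2a5* and *Pnlip* at 0 without treatment). Of kidney tubule markers *Lrp2* alone had enough counts and was lower, with *Umod* and *Kap* at 0 in both libraries and *Slc34a1*, *Cubn* and *Slc12a1* at 0 with TSA. Immediate early genes, which respond to stress and handling of tissue, were at 80.7 and 1445 CPM (6 of 6 higher). The part of these differences in the ratios of the members was not tested.

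The sequences before the start sites of genes at both ends of the range are shown because their base composition is compared further below. The rule took the 2 genes with the highest ratio, *Tat* and *Tdo2*, and the 2 with the lowest, *Gldc* and *Amt*. Sequences are from RefSeq on GRCm38.p6, 5′ to 3′ on the gene's strand, and cover the bases before the RefSeq start. Capitals mark CCAAT and GGGCGG on either strand.
*Tat*, chr8:109990186-109990435, plus strand: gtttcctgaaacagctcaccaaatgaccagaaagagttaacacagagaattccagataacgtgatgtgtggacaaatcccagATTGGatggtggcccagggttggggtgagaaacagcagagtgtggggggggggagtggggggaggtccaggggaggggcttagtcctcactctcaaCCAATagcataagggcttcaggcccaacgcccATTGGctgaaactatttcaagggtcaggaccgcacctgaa
*Gldc*, chr19:30175442-30175691, minus strand: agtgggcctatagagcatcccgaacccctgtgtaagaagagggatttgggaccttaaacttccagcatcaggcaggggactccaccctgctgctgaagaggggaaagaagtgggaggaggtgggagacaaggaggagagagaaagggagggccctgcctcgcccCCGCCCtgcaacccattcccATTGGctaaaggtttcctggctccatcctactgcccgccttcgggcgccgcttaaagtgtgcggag
*Amt*, chr9:108296655-108296852, plus strand: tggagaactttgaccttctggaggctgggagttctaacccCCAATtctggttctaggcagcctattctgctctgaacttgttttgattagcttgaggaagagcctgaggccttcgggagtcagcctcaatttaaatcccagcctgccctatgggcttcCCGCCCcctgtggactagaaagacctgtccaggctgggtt
The *Amt* stretch ends 52 bases before the RefSeq start because GENCODE M21 places an exon there. The *Tdo2* window is not printed, since all 250 of its bases lie in a GENCODE exon. *Tat* holds CCAAT at 3 places, at 168 to 164 and 40 to 36 bases before the start on the opposite strand and at 72 to 68 on its own. *Gldc* and *Amt* hold CCAAT and GGGCGG once each.

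All 6 urea cycle genes were called higher with TMM, and 5 with total counts. *Cps1*, for the ammonia-fixing carbamoyl phosphate synthetase, had 8085 and 93445 counts (untreated first, here and below), or 83.9 and 980.2 FPKM, and was 21.1-fold (20.6 to 21.6) higher. *Otc*, for the ornithine transcarbamylase that makes citrulline, was at 9.63 and 129 FPKM, 24.2-fold (22.4 to 26.1) higher. *Arg1*, for the arginase that releases urea, was at 80.6 and 726 FPKM, 16.3-fold (15.5 to 17.0) higher. With TMM these 3 genes therefore differed by more than 10-fold, and the other 3 by less. With total counts *Arg1* was 9.01-fold higher. *Ass1*, for argininosuccinate synthetase, was the most abundant member in both libraries at 619 and 1591 FPKM and was 4.64-fold (4.56 to 4.72) higher. *Asl*, for the lyase that splits argininosuccinate, stood at 69.9 and 234 FPKM, 6.04-fold higher. *Nags*, for the synthase of the CPS1 activator N-acetylglutamate, had 14.4 and 25.2 FPKM and the smallest ratio of the cycle, 3.16-fold (2.83 to 3.53), or 1.75-fold with total counts, where it was not called.

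Genes that move amino groups through glutamate were less uniform, 5 of 6 higher and none lower with TMM but 2 higher and 1 lower with total counts. *Gpt*, for the cytosolic alanine transaminase that is measured in serum as a sign of liver damage, had the largest ratio of the 6. It had 158 and 5783 counts, or 5.11 and 189 FPKM, 66.8-fold (57.0 to 78.7) higher. The mitochondrial form *Gpt2* was at 59.0 and 77.9 FPKM, 2.38-fold higher with TMM and 1.32-fold with total counts. *Gls2*, for the liver type of glutaminase, was at 41.1 and 114 FPKM, 4.997-fold (4.73 to 5.28) higher. *Glud1*, for glutamate dehydrogenase, and *Got1*, for the cytosolic aspartate transaminase, were 2.99-fold and 3.58-fold higher with TMM and not called with total counts. *Got2*, the mitochondrial aspartate transaminase of the malate-aspartate shuttle, was the second most abundant member without treatment at 464 FPKM and had 231 FPKM with TSA. It was 1.11-fold (1.09 to 1.14) below the untreated level with TMM, not called, and 2.01-fold below it and called lower with total counts.

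Histidine breakdown was higher at each of its 4 steps. *Hal*, for the histidine ammonia-lyase that opens the route, was at 8.03 and 73.0 FPKM, 16.4-fold (14.8 to 18.3) higher. *Uroc1*, for urocanate hydratase, had 9.98 and 157 FPKM, and *Amdhd1*, for the next enzyme, 4.20 and 41.1 FPKM. Their ratios were 28.4-fold (26.2 to 30.9) and 17.7-fold (15.2 to 20.7). *Ftcd*, whose product hands the last one-carbon unit to folate, started from a higher level of 67.0 FPKM, reached 134 FPKM and was 3.60-fold (3.45 to 3.76) higher. With total counts *Ftcd* missed the 2-fold size at 1.99-fold, and the first 3 steps were still called.

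The tyrosine route, 4 of 5 genes higher with either scaling, held the largest difference of all 45 genes. *Tat*, for tyrosine aminotransferase, the hormone-induced first step, had 100 and 61839 counts, or 2.43 and 1522 FPKM. The ratio was 1129-fold (928 to 1387). *Tat* was the 44th of the 45 members by FPKM in the untreated library and the 2nd in the TSA library. Transcripts for the enzymes after it were at higher levels than *Tat* without treatment. *Hpd*, for the dioxygenase that makes homogentisate, was at 117 and 1315 FPKM, 20.2-fold (19.4 to 21.0) higher. *Hgd*, for the dioxygenase that opens the homogentisate ring, stood at 38.6 and 352 FPKM, 16.5-fold higher, and *Fah*, for the last hydrolase of the route, at 72.8 and 454 FPKM, 11.3-fold higher. *Pcbd1*, whose product recycles the cofactor tetrahydrobiopterin, was at 328 and 256 FPKM and was not called. Its direction depended on scaling, 1.41-fold above the untreated level with TMM and 1.28-fold below it with total counts.

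All 5 tryptophan genes were called higher with either scaling. *Tdo2*, for the dioxygenase that starts the kynurenine route, had 61 and 14572 counts, or 2.16 FPKM, the lowest untreated level of any member, and 522 FPKM. The ratio was 436-fold (339 to 570.3). *Kmo*, for kynurenine monooxygenase, was at 3.10 and 120.2 FPKM, 69.9-fold (58.9 to 83.6) higher. *Afmid*, for the formamidase that makes kynurenine, stood at 4.93 and 61.9 FPKM, 22.7-fold (20.2 to 25.5) higher. The later steps had smaller ratios. *Kynu*, for kynureninase, was at 8.99 and 26.5 FPKM, 5.31-fold higher, and *Haao*, which makes the precursor of quinolinate, at 53.4 and 138 FPKM, 4.67-fold higher.

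The enzymes of serine, proline, ornithine, glyoxylate and glycine split, with 6 of 10 higher, 1 lower and 3 neither (5 higher and 3 lower with total counts). *Sds*, for the serine dehydratase that feeds gluconeogenesis, was at 14.2 and 120.2 FPKM, 15.3-fold (13.7 to 17.1) higher. *Prodh*, for proline dehydrogenase, stood at 14.1 and 111 FPKM, 14.2-fold (13.0 to 15.4) higher. The next enzyme of that route, the product of *Aldh4a1*, was at 93.1 and 181 FPKM, 3.51-fold higher, and was not called with total counts. *Oat*, for ornithine aminotransferase, was at 64.5 and 259 FPKM, 7.26-fold higher. Both alanine-glyoxylate transaminases started low: *Agxt*, which removes glyoxylate, had 6.56 and 138 FPKM, 38.0-fold (32.7 to 44.5) higher, and *Agxt2* had 3.26 and 42.5 FPKM, 23.5-fold (19.7 to 28.3) higher. *Prodh2*, for hydroxyproline dehydrogenase, was not called at 101 and 91.7 FPKM, 1.63-fold above the untreated level with TMM and 1.11-fold below it with total counts.

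*Gldc*, for the decarboxylase subunit of the mitochondrial glycine cleavage system, had 12031 and 2940 counts, or 184 and 45.5 FPKM. The TSA library was 2.24-fold (2.15 to 2.34) lower with TMM and 4.05-fold lower with total counts, and *Gldc* was the one member called lower with TMM. *Amt*, for the aminomethyltransferase subunit of the same system, was at 64.5 and 18.4 FPKM, 1.94-fold (1.78 to 2.12) below the untreated level with TMM, just short of the size rule, and 3.50-fold with total counts. *Sdsl*, for a protein related to serine dehydratase, had 342 and 108 counts and was 1.74-fold (1.39 to 2.17) below the untreated level with TMM and 3.13-fold with total counts. By FPKM *Gldc* had rank 5 of the 45 members without treatment and rank 35 with TSA, and *Amt* rank 14 and rank 42.

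Of the 9 branched-chain and propionate enzymes 8 were higher; total counts left 5 of them. *Aldh6a1*, for the methylmalonate semialdehyde dehydrogenase of valine breakdown, had the largest ratio of these, 11.1-fold (10.5 to 11.7), at 24.8 and 152 FPKM. The E1 subunits of the branched-chain keto acid dehydrogenase, the committed step, were 3.84-fold (*Bckdha*) and 6.38-fold (*Bckdhb*) higher. The propionyl-CoA carboxylase subunits *Pcca* and *Pccb* were 4.74-fold and 5.88-fold higher. In leucine breakdown *Ivd*, for isovaleryl-CoA dehydrogenase, was 2.78-fold higher, the carboxylase subunit *Mccc1* 2.96-fold, and its partner *Mccc2* was not called at 43.5 and 33.3 FPKM, 1.38-fold above the untreated level with TMM and 1.31-fold below it with total counts. *Hibch*, a hydrolase of valine breakdown, was 2.50-fold higher. *Ivd*, *Mccc1* and *Hibch* were not called with total counts.

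**Figure D2:**
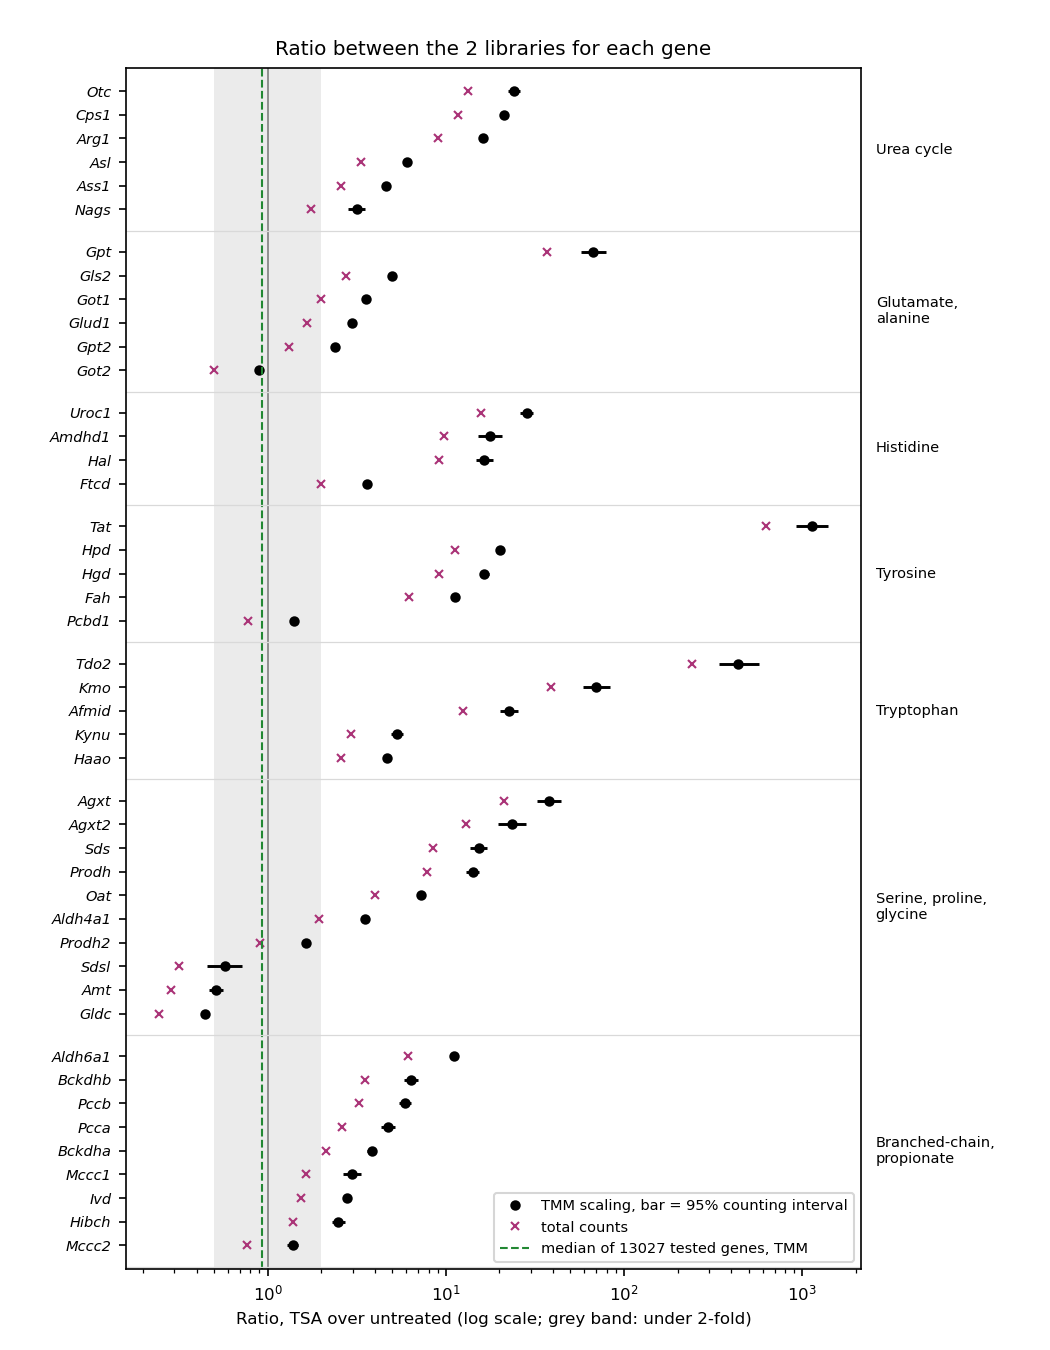
Ratio of TSA over untreated (horizontal log axis) for each of the 45 genes, with TMM scaling (circles, bars are 95% counting intervals) and with total counts (crosses), and the median of all tested genes (dashed line). *Tat* and *Tdo2* lie furthest to the right, and *Gldc* is the one circle left of the grey band of less than 2-fold.

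By level, the members spanned 2.16 to 619 FPKM without treatment, with a median of 38.6 FPKM, and 4.22 to 1591 FPKM with TSA, with a median of 120.2 FPKM. The 5 most abundant members without treatment were *Ass1*, *Got2*, *Pcbd1*, *Glud1* and *Gldc*, and with TSA *Ass1*, *Tat*, *Hpd*, *Cps1* and *Arg1*. The order was therefore rearranged, and Spearman's rho of the FPKM values between the libraries, across the 45 genes, was 0.39. Tyrosine genes made up 17.1% of the members' summed FPKM without treatment and 33.7% with TSA, and glutamate and alanine genes 26.6% and 9.76%. Genes of cytosolic enzymes had a median log2 ratio of 4.09 above that of all genes (18 of 20 called higher) and those of mitochondrial enzymes 1.99 (19 of 24 higher, 1 lower). With total counts 16 of 20 and 12 of 24 were higher, and 1 and 3 lower. Of the 9 genes taken as the first step of a route, *Gldc* was lower and the other 8 were higher with either scaling.

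Ratios between related genes within a library do not depend on library scaling. Without treatment *Gpt2* was 11.5-fold more abundant than *Gpt* per length, and with TSA *Gpt* was 2.43-fold more abundant than *Gpt2*, so the balance differed by 28.0-fold (23.8 to 33.2). *Prodh2* exceeded *Prodh* by 7.19-fold without treatment, while with TSA *Prodh* exceeded *Prodh2* by 1.21-fold, a difference of 8.67-fold (7.88 to 9.56). The dominant member of each of these pairs was therefore the other one. *Sds* and *Sdsl* had nearly equal FPKM without treatment, a ratio of 1.07, and a ratio of 28.5 with TSA. *Got1* was at 0.132 of *Got2* without treatment and at 0.525 of it with TSA.

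*Agxt* exceeded *Agxt2* by 2.01-fold without treatment and 3.25-fold with TSA, a difference of 1.62-fold (1.27 to 2.05). Ratios were also taken between subunits of one complex. The ratio of *Gldc* to *Amt* was 2.85 without treatment and 2.47 with TSA, and that of *Pcca* to *Pccb* was 0.145 and 0.117. *Bckdha* over *Bckdhb* was 2.40 and 1.45. *Mccc1* over *Mccc2* was 0.215 and 0.461, a difference of 2.14-fold (1.87 to 2.46), the largest among these 4 complexes. *Glul*, for the glutamine synthetase of the central vein zone, exceeded *Gls2* by 2.24-fold without treatment and 3.09-fold with TSA. *Arg2*, *Bcat1* and untreated *Ido2* had 14 counts or fewer, so ratios of *Arg1* to *Arg2*, of *Bcat2* to *Bcat1* and of *Tdo2* to *Ido2* are not given.

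**Figure D3:**
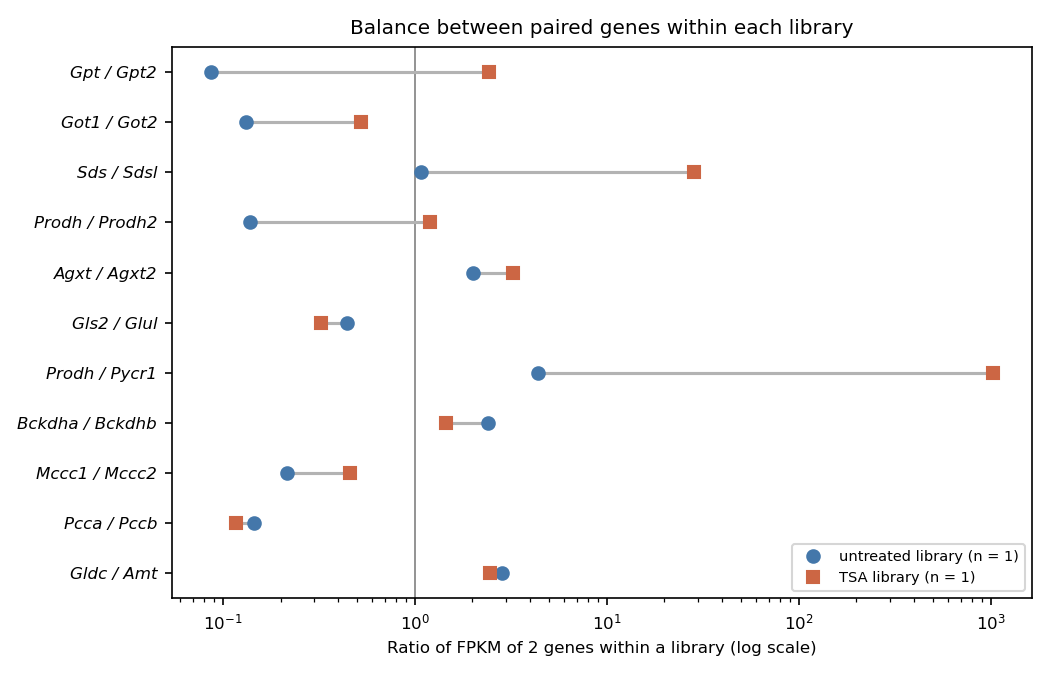
Ratio of the FPKM of a pair of genes within each library (horizontal log axis), untreated (circles) and TSA (squares), 1 library each; the vertical line marks equal levels. *Gpt* over *Gpt2* and *Prodh* over *Prodh2* cross that line, and *Gldc* over *Amt* differs least.

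Neighbouring genes of the same routes were taken from lists of textbook members. Of 9 carriers and partners of nitrogen disposal tested, 7 were higher, and 4 with total counts. *Slc38a3*, a glutamine carrier, was 26.0-fold (25.1 to 27.0) higher, *Car5a*, the mitochondrial carbonic anhydrase that supplies bicarbonate to CPS1, 135-fold (93.7 to 202) higher, and *Glul* 6.89-fold higher. Of 8 phenylalanine and tyrosine genes 7 were higher, with *Gstz1*, for maleylacetoacetate isomerase, at 7.06-fold and *Gch1*, for the first enzyme of biopterin synthesis, at 9.90-fold. *Hpdl*, a relative of *Hpd*, went the other way, with 491 and 8 counts, 33.6-fold (16.9 to 78.3) lower. With total counts 3 of these 8 were higher and 1 lower.

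Among 10 tryptophan and NAD genes 6 were higher and none lower; total counts gave 5 and 1. *Acmsd*, whose product diverts the route away from NAD, had 0 counts without treatment and 357 with TSA. With the 0 set to a floor of 3 counts it was 217-fold higher, and the lower interval end was 176-fold. *Ido2*, a relative of the dioxygenases, had 4 and 1821 counts, 831-fold (324 to 3053) higher. *Kyat3*, a kynurenine transaminase, was 8.25-fold higher and *Kyat1* was not called at 1.11-fold. All 5 lysine genes were higher: *Aass*, for the first enzyme of lysine breakdown, by 78.9-fold (67.4 to 93.1), *Dhtkd1* by 5.63-fold, *Gcdh* by 5.01-fold and *Aldh7a1* by 2.57-fold, the last not called with total counts.

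Of 17 further branched-chain and propionate genes 11 were higher and 1 lower with TMM, and 4 and 2 with total counts. *Ppm1k*, for the phosphatase that switches the keto acid dehydrogenase on, was at 2.74 and 14.7 FPKM, 9.65-fold (8.55 to 10.9) higher. *Bckdk*, for the kinase that switches it off, was at 44.0 and 4.20 FPKM, 5.81-fold (5.03 to 6.74) lower; it is named after its values were seen, as the one lower gene. *Mut*, for methylmalonyl-CoA mutase, was 6.34-fold higher, *Abat*, for the GABA transaminase, 2.05-fold higher and *Acat1*, for a thiolase, was not called at 1.78-fold. With total counts *Abat* was not called either.

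The list of glycine, serine, proline and threonine genes was divided, 7 of 16 higher and 6 lower with TMM, against 26.0% and 27.4% of all genes. With total counts 6 were higher and 7 lower, against 16.0% and 48.7% of all genes. The lower calls with total counts are therefore not above the share of all genes. *Gnmt*, for glycine N-methyltransferase, was 40.0-fold higher, *Sardh*, for sarcosine dehydrogenase, 6.24-fold, *Glyat*, for glycine N-acyltransferase, 231-fold (157 to 354), and *Ddo*, for D-aspartate oxidase, 128-fold (64.4 to 297). Among the lower genes, named after their values were seen except *Pycr1*, were *Pycr1* and *Aldh18a1* of proline synthesis, *Gcat* and *Tdh* of threonine breakdown, and *Dao*, of which *Tdh* and *Dao* rest on 20 and 36 counts without treatment. *Aldh18a1*, for the first enzyme of proline synthesis, had 4043 and 50 counts, 44.3-fold (33.5 to 59.8) lower. *Prodh* and *Pycr1*, which oxidise and make proline, stood at a ratio of 4.40 without treatment and 1029 with TSA, the latter resting on 7 counts of *Pycr1*. *Gcsh*, the carrier subunit of glycine cleavage, was not called, with 1899 and 1051 counts; it is named after its value was seen, as a partner of *Gldc*.

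Of 8 genes of amino acid synthesis and amino acid stress 4 were lower, 2 higher and 2 neither. With total counts 4 were lower, 1 higher and 3 neither. Among all genes 27.4% were lower and 26.0% higher with TMM, and 48.7% and 16.0% with total counts. The counts for this list are therefore near those shares with total counts, and the sizes of single genes follow. *Phgdh* and *Psat1*, for the first enzymes of serine synthesis, were at 422 and 304 FPKM without treatment and at 1.28 and 1.41 FPKM with TSA, 182-fold (134 to 254) and 120-fold (92.8 to 157) lower. *Asns*, for asparagine synthetase, and *Psph*, for the last enzyme of serine synthesis, were the other lower genes, at 116-fold and 6.95-fold, and are named after their values were seen. The 2 higher genes were *Chac1*, with 13 and 51 counts, and *Ddit3*, with 68 and 83 counts, which was not called with total counts. Serine synthesis and *Sds*, which destroys serine, thus lay on opposite sides in these libraries.

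**Figure D4:**
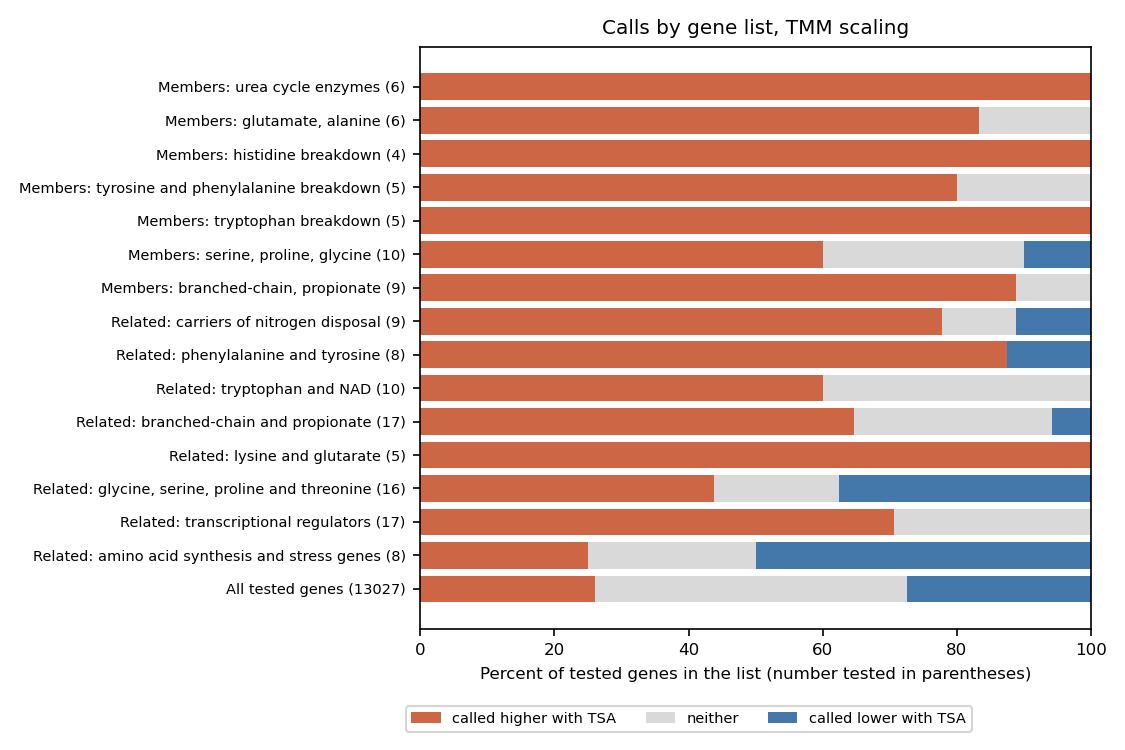
Percent of the tested genes of each list that were called higher (orange), neither (grey) or lower (blue) with TMM scaling; the number tested is in parentheses and the bottom bar is all 13027 tested genes. The lists with the widest blue part are amino acid synthesis and stress genes (4 of 8 lower) and glycine, serine, proline and threonine genes (6 of 16 lower), against 27.4% of all genes. With total counts, not drawn here, 4 of 8 and 7 of 16 were lower, against 48.7% of all genes.

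Of 17 transcription factors and receptors known to act on these genes 12 were higher and none lower; total counts gave 8 and 3. *Hnf4a*, for the central hepatocyte factor, was at 112 and 152 FPKM, 2.46-fold higher with TMM and not called with total counts. *Nr1i3*, for the xenobiotic receptor CAR, was 173-fold (132 to 231) higher and *Ppargc1a*, for the fasting coactivator PGC-1alpha, 12.2-fold (8.39 to 18.3) higher from 32 counts. *Ctnnb1*, for beta-catenin, was not called with TMM at 1.43-fold below the untreated level, and was called lower with total counts at 2.59-fold.

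Base composition before the start was compared for the 37 members with a RefSeq window of 250 bases. The 11 members with 0 to 4 CG dinucleotides in the window had a median ratio of 23.5-fold, the 11 with 5 to 9 had 4.74-fold, and the 15 with 10 or more had 3.58-fold. The same order held for all tested genes with a window, at 2.23, 1.05 and 0.824, so it is not particular to these pathways. Spearman's rho of CG count and log2 ratio was -0.39 across the 37 members, which share both libraries, and -0.19 across 10035 tested genes. *Tat* had 3 CG dinucleotides and *Glud1* 46, but *Amt*, with 3, and *Gldc*, with 8, had the lowest ratios. Of the 37 windows 7 lie more than 50% in GENCODE exons; without them the medians were 19.7-fold, 7.24-fold and 3.54-fold.

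Letter matches on either strand were counted in the same windows for 5 motifs. None of them contains another on either strand, though their ends can overlap. CCAAT was found in 17 of 37 members (45.9%) and in 34.5% of 27025 genes. Those 27025 are all genes with a window, of which 10035 were tested here. The median CG count was 15 in the tested genes and 6 in all 27025. Motif shares among the tested genes were not taken, so the shares below are not matched to expressed genes. TATAAA was found in 7 members (18.9%) and 13.0% of genes, and GGGCGG in 13 members (35.1%) and 32.9% of genes. CACGTG, the E-box of MYC and other factors, was in 2 members (5.41%), *Ass1* and *Mccc2*, and 6.05% of genes. CAAAGTCCA, letters of an HNF4A consensus, was found in *Agxt2* alone and in 0.381% of genes. A match is a description of these letters and does not show binding.

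**Figure D5:**
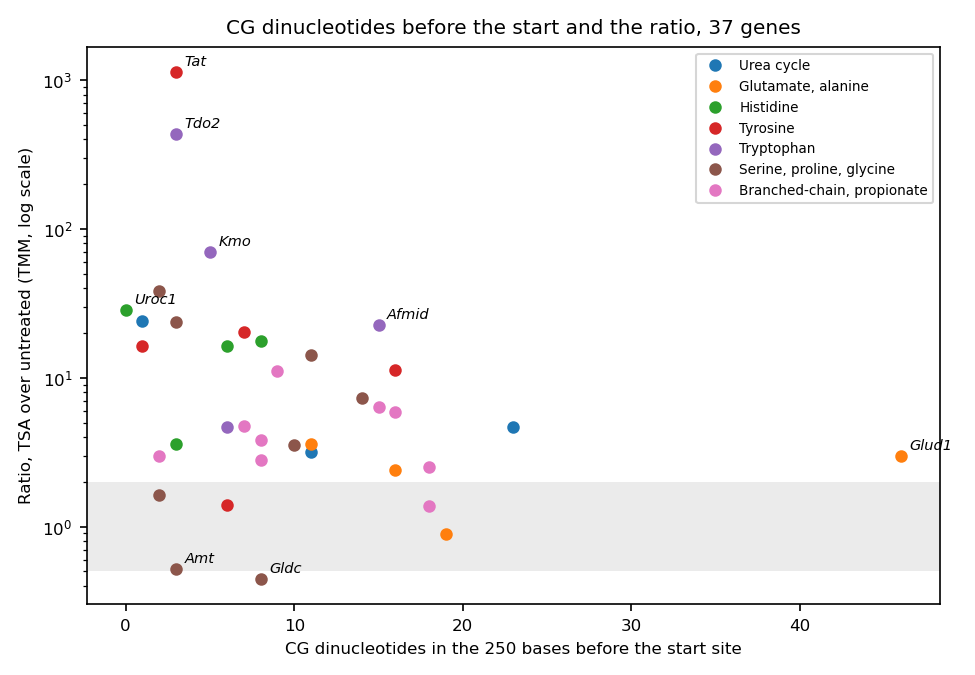
CG dinucleotides in the 250 bases before the RefSeq start (horizontal axis) against the ratio of TSA over untreated with TMM scaling (vertical log axis) for 37 genes, coloured by pathway; the grey band is less than 2-fold. *Tat* and *Tdo2*, with 3 each, are at the top, and *Amt*, also with 3, is near the bottom.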

How the data were processed

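PolyA RNA of mouse liver was read from 2 libraries, 1 per group. Deposited counts give, for every gene symbol, a whole number of reads, per the file headers. The deposited FPKM values are those counts over gene model length and library total. This was checked from the values: all 14271 genes counted in both libraries gave 1 whole length, the same in each to 0.1 base. The submitters' processing notes list HISAT2, Trimmomatic, DESeq and Bowtie2 without saying what each did. Not given in the sources used here are the build, annotation, counter, strand setting and handling of reads shared by related or overlapping genes.

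Library sizes were scaled by TMM (edgeR 4.0.16, R 4.3.3; factors 1.34 untreated, 0.744 TSA); alternatives were total counts, upper quartiles, DESeq2 1.42.0 size factors, deposited FPKM plus 0.1, other count minimums, a prior count, thinning to equal depth and other fold thresholds. Genes needed at least 20 summed counts to be compared. Intervals are exact conditional binomial (Clopper-Pearson), or the conditional odds ratio for pairs; the reads carry no stated molecular identifiers, so they need not be independent molecules. A count of 0 was set to 3. The calling step, in Python 3.11.15 with scipy 1.17.1, pandas 2.3.3 and numpy 2.4.6, was tested on simulated data. These held counting error only, few differing genes and scaling by total counts. The simulation therefore covers neither TMM scaling nor variation between animals. Plots used matplotlib 3.10.9.

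The members and lists were chosen with earlier results of these data known. All members are reported; from each related list the text names 2 genes by total count and 2 by size of difference (50 counts or more), and the partners of the pairs. The alternative without windows mostly in exons was chosen after seeing the data. *Mut* was matched through the older symbol of *Mmut*. *H19*, *Trac* and *Ighm* were not matched and were not used here. Some genes of the related lists are counted in them but not reported here by name.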

Additional observations from a re-analysis of the deposited data

How the results depend on the processing

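The count of members called higher was 38 with TMM, against 26.0% of all genes, and stayed within 1.5 times of 38 under all 11 alternatives. It was lowest at a 4-fold threshold, with 28 members against 15% of all genes. The highest count was 39 at a 1.5-fold threshold, against 32.6% of all genes. The count called lower was 1, against 27.4% of all genes. It moved to 4 with total counts (48.7% of all genes) and with deposited FPKM plus 0.1 (47.5%). It moved to 3 at a 1.5-fold threshold (36.4% of all genes) and to 0 at a 4-fold threshold (12.6%). With total counts 12 members had another call: 9 higher genes were no longer called, and *Got2*, *Sdsl* and *Amt* became lower. The members' median log2 ratio relative to all genes was 2.67 and moved to 2.51 with no minimum count, which adds genes of few counts to the comparison; its other alternatives lay between 2.61 and 2.72. No called member changed direction under any alternative. Ratios between paired genes are the same from FPKM and from counts by construction. No paired analysis was possible because each group is 1 library, and no library could be left out. Depth limited only *Arg2*, *Bcat1*, *Ido2* and *Pycr1* among the genes compared in pairs.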
